A study of Mus musculus with 8 samples.

Results

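The segment described here is 2 Mb of mouse chromosome 15, from 91000000 to 93000000 in build mm9, and its members are the peaks of 5-hydroxymethylcytosine (5hmC) whose midpoint lies in it. It held 343 of the 393283 peaks in the 8 deposited lists, which is 0.0872%. The segment carries the names of 4 genes, Slc2a13, Lrrk2, Cntn1 and Pdzrn4. It was chosen by the peak counts of its windows of 1 Mb, 91 to 92 Mb and 92 to 93 Mb, both of which differed between aged mice in enriched and in control housing, the former also with housing over both ages. Every comparison of housing at the segment is therefore given as a description, without a test.

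The lists came from hippocampal genomic DNA of C57BL/6 mice in 4 groups of 2 samples. Young mice (6 weeks) and aged mice (18 months) lived in standard cages throughout or spent 5 hours a day for 4 weeks in an enriched environment, a roomier chamber furnished with objects to explore and a wheel. The labels name no transgene or deletion, and give neither the sex of the mice nor how many stand behind a sample. The series asks how enriched housing and age bear on 5hmC. Whole hippocampus holds neurons and glia, so more cells carrying the mark at a site and more of the mark per cell cannot be told apart.

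TET enzymes make 5hmC by oxidising 5-methylcytosine, and the brain holds more of it than most tissues. In neurons it is known to lie mostly over the bodies of active genes, at cytosines followed by guanine (CpG). Slc2a13 encodes a proton-driven transporter of myo-inositol, of the same family as the glucose transporters. Lrrk2 encodes a large protein with a kinase and a GTPase domain, and mutations in its human counterpart cause inherited Parkinson's disease. Cntn1 encodes contactin-1, an immunoglobulin-like adhesion molecule held to the axon surface by a lipid anchor. Pdzrn4 encodes a protein with PDZ and RING finger domains, of the LNX family.

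All 4 gene names were found in the RefSeq gene table for GRCm38.p6, where they follow each other on chromosome 15 in the order Slc2a13, Lrrk2, Cntn1, Pdzrn4. Smgc, a salivary gland protein gene, lies between Lrrk2 and Cntn1, which makes 5 protein-coding genes from Slc2a13 to Pdzrn4. Abcd2, a peroxisomal fatty acid transporter gene, and CN725425 precede Slc2a13, and Gxylt1 and Yaf2 follow Pdzrn4. The peaks are in mm9 and no mm9 gene positions were used here, so no peak is given to a gene, and neither the gene content of the segment nor hippocampal marker genes could be checked in the peak coordinates.

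The density of CpG limits how much of the mark a stretch of DNA can hold, and it differed widely between the start sites of these genes. In windows from 250 bases before to 50 bases after a start, read on the gene's strand, RefSeq (GRCm38.p6) gave 28 CpG for Lrrk2, 13 for Slc2a13, 9, 5 and 4 for the 3 listed starts of Cntn1, and 4 and 3 for the pair listed for Pdzrn4. The median over 32851 such windows was 7 CpG, and 94.6% held at least 1. At least as many CpG as at Lrrk2 were found in 14.2% of them, and at least as many as at the poorer start of Pdzrn4 in 76.7%. The richest and the poorest of the 7 windows are shown because they bound the range, with each CG in capitals (CG reads the same on both strands), and nothing here says whether a peak covers either.
Lrrk2 (plus strand): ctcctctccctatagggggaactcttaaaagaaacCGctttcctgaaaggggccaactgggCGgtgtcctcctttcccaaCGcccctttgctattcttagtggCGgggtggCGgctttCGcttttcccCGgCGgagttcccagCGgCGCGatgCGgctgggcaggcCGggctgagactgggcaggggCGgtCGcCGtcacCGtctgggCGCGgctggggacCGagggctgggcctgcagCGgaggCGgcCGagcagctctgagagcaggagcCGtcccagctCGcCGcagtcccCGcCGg
Pdzrn4, the poorer start (plus strand): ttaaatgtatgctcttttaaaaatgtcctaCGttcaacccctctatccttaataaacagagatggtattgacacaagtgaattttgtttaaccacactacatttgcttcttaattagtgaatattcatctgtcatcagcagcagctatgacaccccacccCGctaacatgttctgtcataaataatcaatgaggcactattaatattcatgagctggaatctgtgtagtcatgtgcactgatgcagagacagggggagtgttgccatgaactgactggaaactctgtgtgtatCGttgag

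The lists held 25548 to 78980 peaks, and the number of reads behind them is unknown, so a peak count is read here beside the length of its list. Aged enriched replicate 2 stood apart in shape, with a median peak width of 430 bp over its list against 650 to 952 bp in the other lists. The score deposited with each peak ranks the peaks of a list. Scores of at least 100 were given to 72.4% of the peaks in that list and to 9.92% to 31.9% elsewhere.

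Peaks were scarcest at the segment in aged control mice. Aged control samples had 25 and 15 peaks in the segment, and aged enriched samples 31 and 39. Young control samples had 32 and 78, and young enriched samples 67 and 56. Both aged control samples had fewer segment peaks than each of the other 6 samples, although the aged enriched lists were the shortest. At 91 to 92 Mb aged control samples had 10 and 6 peaks, aged enriched 13 and 19, young control 12 and 35, and young enriched 32 and 25. At 92 to 93 Mb the counts were 15 and 9, 18 and 20, 20 and 43, and 35 and 31 in that order. In both windows the 2 aged control counts lay below all others, as they did in 1.29% of 1548 windows of 1 Mb, and both aged enriched counts lay above both aged control counts, as in 1.42%. Per 1000000 peaks of the list both orders held too, as in 12.5% and 26.3% of windows. The choice of the segment used these counts.

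As a share of the list, the groups ranked aged enriched, young enriched, young control, aged control. Segment peaks made up 0.124% ± 0.00364 of the list in aged enriched samples (mean ± SD, n = 2), with 0.121% and 0.126%. In young enriched samples the share was 0.105% ± 0.0158 (SD, n = 2), with 0.117% and 0.0942%. It was 0.0860% ± 0.0181 (SD, n = 2) in young control samples, with 0.0732% and 0.0988%. Aged control samples had 0.0408% ± 0.00192 (SD, n = 2), with 0.0422% and 0.0395%. The gap between aged control and every other group exceeded the spread within the groups. The choice of the segment used the contrast of the aged groups, which favoured such a gap, so it is a description. The young groups overlapped each other, and both aged enriched values lay above all young values, the nearest being young enriched replicate 1.

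**Figure D1:**
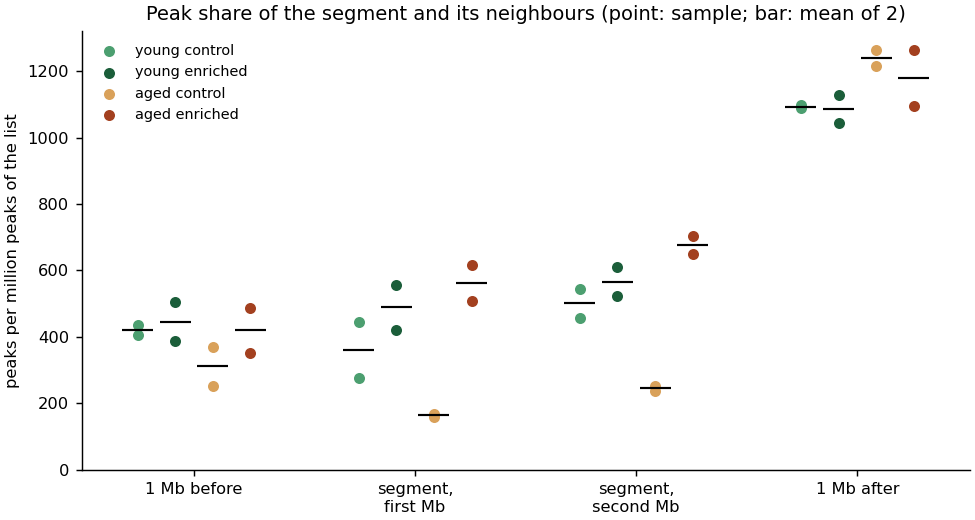
Peaks per 1000000 peaks of the list (y axis) in the windows of the segment and in the 1 Mb windows before and after it (x axis), for each sample (points) with the mean of each group of 2 (bars). In both segment windows the aged control samples are the lowest, at 158 to 253, while the window after the segment has all 8 samples between 1044 and 1265.

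Enriched housing went with 3.04 times the share of control housing in aged samples (log2 difference 1.60, ratio of geometric means) and with 1.23 times in young samples (log2 difference 0.30). The aged difference was 1.57 with aged enriched replicate 2 left out and 1.63 with replicate 1 left out. In lists cut to the 25548 strongest peaks each, aged enriched samples held 31 and 35 segment peaks and aged control samples 8 and 9. Peaks of high score were few. Among peaks with a score of 100 or more, aged enriched samples had 1 and 28 in the segment and aged control samples 6 and 2. As a share of such peaks aged enriched replicate 1 (0.0394%) lay between the aged control samples (0.0406% and 0.0302%), and aged enriched replicate 2 (0.126%) lay above both, so the difference among these peaks rested on replicate 2.

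The fitted log2 differences of the 1 Mb windows show the same values on the scale that chose them. For a limma fit of log2 peaks per 1000000, 1 peak was added to each count. Aged enriched samples exceeded aged control samples by 1.69 ± 0.30 (SE) at 91 to 92 Mb and 1.42 ± 0.25 (SE) at 92 to 93 Mb. These SE rest on 1 spread shared by all 4 groups, and were 0.38 and 0.33 with array weights per group. The segment windows are 2 of the 56 that limma called in aged samples at an adjusted p under 0.05. Those 56 were 3.62% of 1548, and 37 of them were higher (2.39%). Leaving out any 1 of the 8 samples moved that number by more than 1.5 times, to between 0 (without aged control replicate 2, 225 at an unadjusted p under 0.05) and 288 (without aged enriched replicate 1). In young samples the differences were 0.44 ± 0.30 (SE) and 0.17 ± 0.25 (SE), and no window was called (0.0%, with 15 at an unadjusted p under 0.05 by limma). Over both ages they were 1.07 ± 0.22 (SE) and 0.79 ± 0.18 (SE), and 91 to 92 Mb was the only window called (0.0646%). That number was 130 without aged enriched replicate 1, 17 without aged enriched replicate 2, 2 without young control replicate 2 and 0 without any 1 of the other 5 samples (84 to 189 at an unadjusted p under 0.05). The aged and the pooled comparison share the aged samples, and whether the effect of housing differed between ages was not tested, because the aged comparison chose the segment.

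The windows on either side did not separate the aged groups. After the segment, at 93 to 94 Mb, aged control samples had 1239 ± 34.1 peaks per 1000000, aged enriched 1180 ± 119, young control 1094 ± 6.57 and young enriched samples 1085 ± 58.8 (SD, n = 2 each). There the aged control mean was the highest of the 4. The window before it, 90 to 91 Mb, had 311 ± 81.5, 419 ± 94.9, 420 ± 20.9 and 446 ± 83.2 in that order (SD, n = 2 each), where the aged control mean was the lowest but the aged groups overlapped. Chromosome 15 as a whole took 4.74% to 5.18% of each list, with the highest share in aged control replicate 2 and the lowest in aged enriched replicate 2. The last peak outside the lower border lay at 90998182 to 90999302 (young control replicate 2, score 109) and the first inside it at 91014715 to 91015308 (young enriched replicate 1, score 59.0). At the upper border the last inside lay at 92992168 to 92992846 and the first outside at 93013207 to 93013781, both in aged control replicate 1, with scores of 63.3 and 52.0.

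Within the segment the contrast between the aged groups was uneven. From 91000001 to 91250000, aged enriched samples had 8 and 7 peaks and aged control samples 1 and 2. From 92000001 to 92250000 they had 8 and 8 against 3 and 3. The aged enriched counts also lay above both aged control counts from 91750001 to 92000000 (2 and 6 against 1 and 1) and from 92250001 to 92500000 (3 and 4 against 1 and 1). These are 4 of the 8 steps of 250 kb, and 1.96% of 4793 such windows had this order. In 3 steps both aged control counts lay below all others, as in 1.25% of windows. Per 1000000 peaks these were 5 and 4 steps, as in 19.5% and 7.16% of windows. The steps divide the 1 Mb windows that were chosen for this contrast, so the choice favoured both orders. The counts ran the other way in sum from 91250001 to 91500000 (1 and 5 against 4 and 3), from 91500001 to 91750000 (2 and 1 against 4 and 0) and from 92500001 to 92750000 (1 and 2 against 5 and 3). Relative to the longer lists of the aged control samples, only the last of these 3 steps ran the other way, with fitted log2 differences of 0.39 ± 0.50, 0.89 ± 0.66 and −0.24 ± 0.49 (SE) in that order. No window of 250 kb was called by limma in aged samples (714 at an unadjusted p under 0.05).

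**Figure D2:**
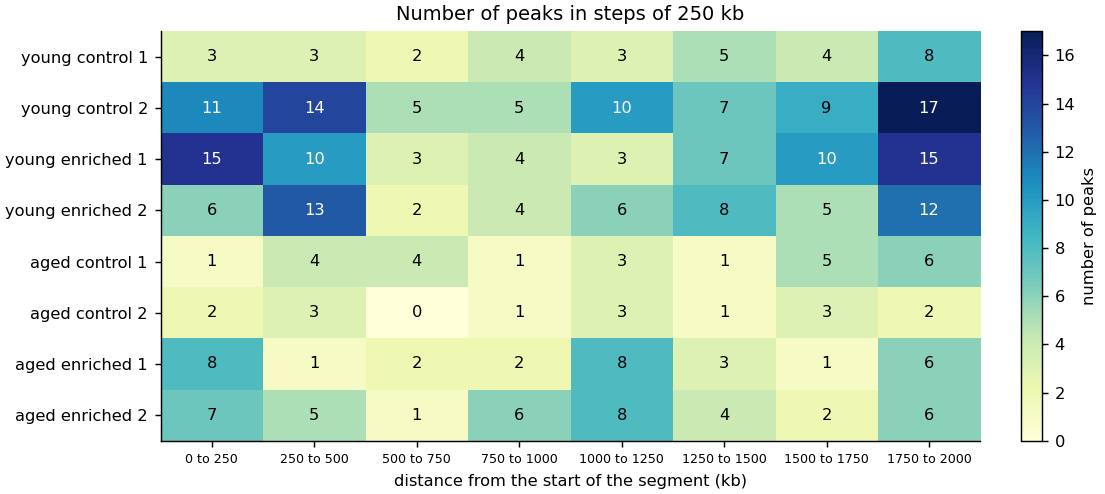
Number of peaks (colour and digits) in 8 steps of 250 kb along the segment (x axis, distance from its start) in each sample (rows). The aged enriched samples have 8 and 7 peaks in the first step, where the aged control samples have 1 and 2, and 1 and 2 in the seventh, where those have 5 and 3.

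Over all samples the last step was the fullest and the third the emptiest. From 92750001 to 93000000 there were 72 peaks, with 8, 17, 15 and 12 in the young lists and 6, 2, 6 and 6 in the aged lists. From 91500001 to 91750000 there were 19, with 5 at most in any list. No list had a peak between 91582953 and 91729798, a gap of 147 kb, against a median of 5.47 kb between neighbouring regions. The next longest gaps were 112 kb, from 92619279 to 92730907, and 91.6 kb, from 92175345 to 92266936.

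Age alone did not separate the samples at the segment. The 4 aged samples had 0.753 times the segment share of the 4 young samples by geometric mean (log2 difference −0.41). An exact two-sided permutation test of 4 against 4 gave p = 0.429, where 0.0286 is the smallest possible, and p = 0.486 after Benjamini-Hochberg adjustment over the 4 measures tested. Aged samples stood at both ends of the order of shares, the control samples lowest and the enriched samples highest. The segment was chosen for a difference between the aged groups, so this spread follows in part from the choice. It raises the p of a test that sets housing aside, so a high p here does not show that age made no difference. For the length under segment peaks, as a share of the length under all peaks of the list, the ratio was 0.788 (exact permutation p = 0.486, adjusted p = 0.486). In the limma fit, 91 to 92 Mb was −0.37 ± 0.22 (SE, adjusted p = 0.569) and 92 to 93 Mb −0.33 ± 0.18 (SE, adjusted p = 0.543) in aged against young samples. Limma called 0 of 1548 windows with age (0.0%, with 149 at an unadjusted p under 0.05), 111 when aged enriched replicate 2 was left out, 10 when aged enriched replicate 1 was and 1 when young control replicate 2 was. Neither segment window was among those called.

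Segment peaks were short and of middling strength. Aged enriched samples had median widths of 628 and 416 bp, aged control samples 769 and 735 bp, young control samples 837 and 909 bp and young enriched samples 786 and 828 bp. The width was below the median of the list in 8 of 8 samples, at 0.884 to 0.996 times. Relative to the list, width was 1.04 times in aged against young samples (exact permutation p = 0.314, adjusted p = 0.486). The median score of segment peaks stood at the 37.2 to 57.1 percentile of their own list, below the 50th in 6 of 8 samples. The percentile was 5.08 points higher in aged than in young samples (exact permutation p = 0.40, adjusted p = 0.486). The strongest segment peak of each list stood at the 87.0 to 95.9 percentile.

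Peaks covered 20.2 and 11.5 kb of the segment in aged control samples and 20.5 and 16.2 kb in aged enriched samples. In young control samples they covered 27.5 and 75.1 kb, and in young enriched samples 56.9 and 48.9 kb. In kilobases the aged groups overlapped, although their peak numbers did not. Covered length as a percent of that of the list kept the groups apart, at 0.112% and 0.119% in aged enriched and 0.0346% and 0.0365% in aged control samples. It is measured on the peaks whose counts chose the segment for this contrast, which favoured the separation.

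Of the 343 segment peaks, 240 overlapped a peak of another sample and 103 (30.0%) did not, against 18.6% without such an overlap over all lists. Overlapping peaks of all samples merged into 185 regions with a median width of 804 bp, against 892 bp over 156744 regions of the genome. A peak was present in only 1 sample in 103 of them (55.7%, genome 46.7%) and in 4 or more samples in 23 (12.4%, genome 22.5%). Both aged control samples had a peak in 1.62% of the segment regions, against 11.5% over the genome. The choice of the segment favoured few aged control peaks, which lowers the number of samples per region, so these shares are a description. No region had a peak in all 8 samples. Were regions independent, a count of 0 among 185 would allow a share of up to 1.62%, above the 1.31% of the genome. A difference was thus not detectable with this number of regions. Regions of the same lists are not independent, and few aged control peaks make presence in all 8 less likely. This limit is therefore rough.

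**Figure D3:**
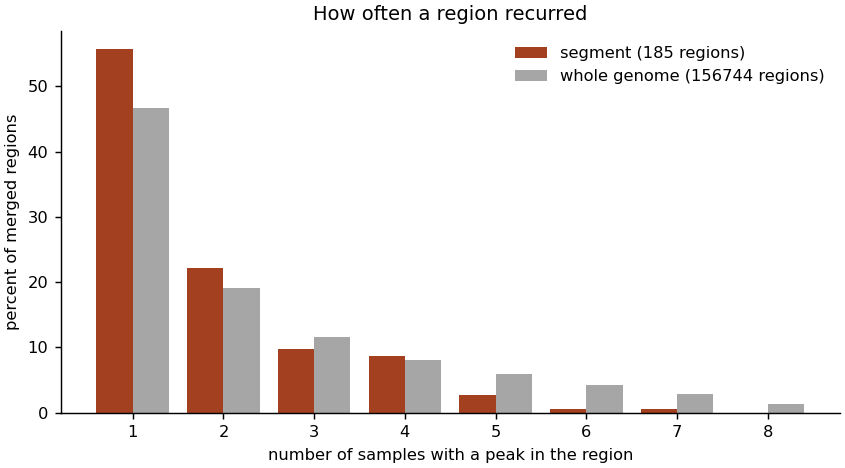
Percent of merged regions (y axis) by the number of samples with a peak in them (x axis), for the 185 regions of the segment and the 156744 of the genome (bars). Regions in a single sample make up 55.7% in the segment and 46.7% in the genome. The choice of the segment favoured few aged control peaks, which lowers the number of samples per region.

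The aged enriched samples shared few peaks with each other, at the segment as over their whole lists. Of the segment peaks, 4 of the 31 of replicate 1 (12.9%) and 4 of the 39 of replicate 2 (10.3%) overlapped a peak of the other, against 16.6% and 14.1% over the lists. Of 66 regions with a peak in either sample, 53 (80.3%) had none in aged control samples, against 54.4% of 48809 such regions over the genome. None in any other group was found for 33 (50.0%, genome 32.7%), and 4 had a peak in both samples (6.06%, genome 10.5%). The choice of the segment used the contrast of these groups. In replicate 2, 21 of 39 segment peaks (53.8%) overlapped no peak of any other sample, against 33.0% over its list. In replicate 1 these were 12 of 31 (38.7%), against 21.9%. A young sample had a peak at 18 segment peaks of replicate 1 (58.1%, list 71.9%) and at 18 of replicate 2 (46.2%, list 62.6%).

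Sharing was below that of the lists between most other samples. The aged control samples shared 3 regions, 12.0% of the 25 peaks of replicate 1 and 20.0% of the 15 of replicate 2, against 31.5% and 50.4% over their lists. Young pairs shared 17.9% to 62.5% of segment peaks (median 36.1%), against 37.4% to 68.2% (median 51.9%) over the lists. In 53 of the 56 ordered pairs the segment value was below that of the list, and the 3 exceptions had aged control replicate 1 as the sample whose peaks were counted. A percentage of this kind moves with the lengths of both lists, and the pairs share samples. It also falls where the other sample has few peaks, which the choice of the segment favoured for aged control samples. It is therefore given as a description.

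**Figure D4:**
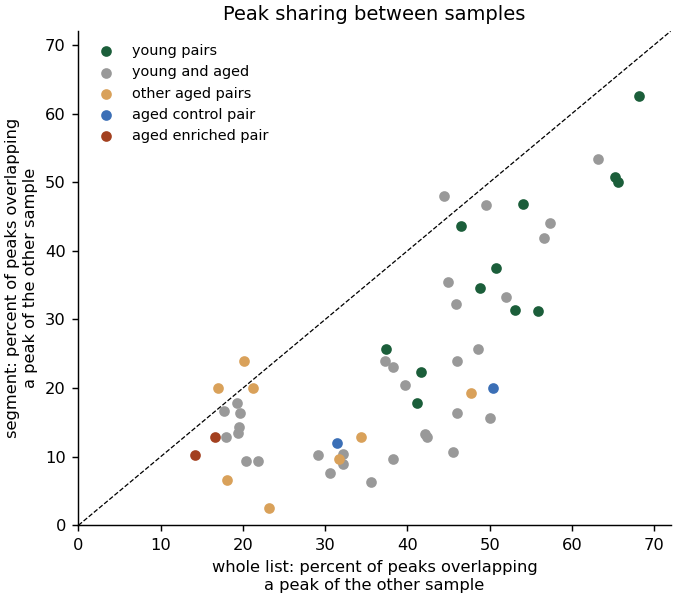
Percent of a sample's segment peaks that overlap a peak of another sample (y axis) against the same percent over the whole list (x axis), for the 56 ordered pairs (points) with the line of equality (dashed). Of the points, 53 lie below the line, and the aged enriched pair sits at 10.3% and 12.9%.

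**Figure D5:**
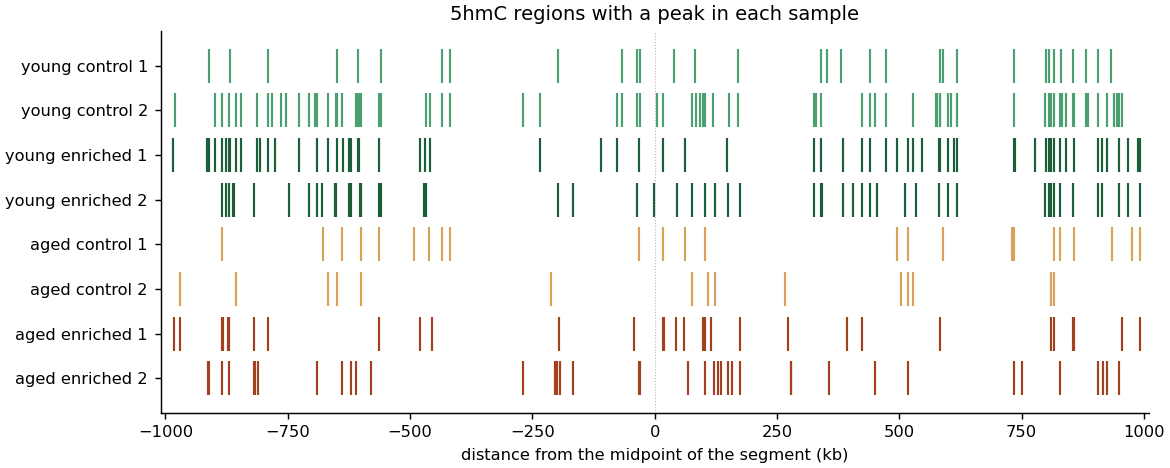
Merged regions with a peak (ticks) in each sample (rows) by distance from the midpoint of the segment in kb (x axis). Aged control samples have the fewest ticks, a common gap lies left of the centre, and the ticks of the aged enriched samples fall mostly at different places, with 4 shared regions.

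Few regions followed housing in every aged sample. Regions with a peak in both aged enriched and neither aged control sample numbered 2 (1.08%, 0.561% over the genome). At 91179675 to 91181217 the scores were 55.8 and 152 in aged enriched samples and 95.8 in young enriched replicate 2, and no other sample had a peak. At 92174569 to 92175344 they were 71.9 and 112 in aged enriched samples and 61.5 in young enriched replicate 2. Both regions were thus found in 3 enriched samples and in no control sample, but not in young enriched replicate 1. How many regions over the genome had this full pattern was not counted. Among peaks with a score of at least 100, 0 regions had a peak in both aged enriched and neither aged control sample. The rule that named the regions fixed the aged part of their pattern, along the contrast that chose the segment. The reverse held for 1 region (0.541%, 5.6% over the genome), at 91398724 to 91399799, with scores of 102 and 53.1 in aged control samples, 56.7 in young control replicate 2 and 115 in young enriched replicate 2. In young samples, 6 regions had a peak in both enriched and neither control sample (3.24%, 2.13% over the genome) and 6 the reverse (3.24%, 2.78% over the genome).

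The other 2 regions shared by the aged enriched samples also had a peak in aged control replicate 1. They lay at 91114554 to 91115881, with peaks in 6 samples, and at 92101428 to 92102468, with peaks in 5. At the first of them scores were 212 in young control replicate 2, 87.8 and 112 in young enriched, 169 in aged control replicate 1, and 57.2 and 160 in aged enriched samples. Scores rank peaks within a list only, and these stood at the 37.2 to 94.5 percentile of theirs. The most recurrent region of the segment, at 92814821 to 92815887, had a peak in 7 samples and none in aged enriched replicate 2. Its scores were 60.0 and 118 in young control, 75.8 and 88.2 in young enriched, 127 and 105 in aged control, and 121 in aged enriched replicate 1. These regions were picked for their recurrence after their values had been seen.

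In a few regions the presence of peaks followed age rather than housing. A peak in all 4 young and no aged samples was found in 4 regions (2.16%, 0.894% over the genome), and in all 4 aged and no young samples in 0 (0.00957% over the genome). The 4 lay at 92339679 to 92341370, 92439924 to 92441088, 92617917 to 92619278 and 92806663 to 92807645, all between 92 and 93 Mb. Their scores ran from 65.3 to 194, with the highest in young control replicate 2 at 92339679 to 92341370. They too were named after their values had been seen. The choice of the segment favoured few aged control peaks, and the aged enriched lists were the shortest. Both make absence from all aged samples more likely, so this number is a description and was not tested. Of the 23 regions found in 4 or more samples, 11 (47.8%) had no peak in aged control samples and 6 (26.1%) none in aged enriched samples, against 12.2% and 42.1% of 35344 such regions over the genome, again along the contrast that chose the segment.

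The widest region and the strongest peak of the segment each had a peak in 1 aged enriched and no aged control sample. That was usual here, as 53 of 66 segment regions with an aged enriched peak had no aged control peak (80.3%, genome 54.4%). The choice of the segment used this contrast. The widest region, 2811 bp at 92954605 to 92957415, had a peak in young control replicate 2 (score 211) and in aged enriched replicate 1 (score 90.9) only. The peak with the highest percentile, 95.9, was that of aged enriched replicate 2 at 92905508 to 92906955 (score 216). That region had a peak in all 4 young samples (scores 50.1 to 126), none in aged control samples and none in aged enriched replicate 1.

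The 2 windows of the segment followed each other closely over the 8 samples (Pearson r = 0.970, log2 peaks per 1000000, n = 8 samples). Both were chosen for a difference between the aged groups in these values, which favoured a high r between them. The windows elsewhere most like their mean were 110 to 111 Mb of chromosome 13 (r = 0.988), 70 to 71 Mb of chromosome 8 (r = 0.971) and 152 to 153 Mb of chromosome 1 (r = 0.965). Over 1546 other windows the median r was 0.17, and 29.1% exceeded 0.5. At 110 to 111 Mb of chromosome 13 aged control samples had 22 and 12 peaks, aged enriched 16 and 22, young control 21 and 48, and young enriched 40 and 35, so the aged groups overlapped in number there. Per 1000000 peaks they did not, with 371.2 and 315.8 in aged control and 626 and 714 in aged enriched samples. The window on chromosome 8 kept the order of the segment in number, with 8 and 3 peaks in aged control, 9 and 11 in aged enriched, 9 and 24 in young control and 17 and 15 in young enriched samples. That on chromosome 1 had 5 and 2 peaks in aged control and 5 and 8 in aged enriched samples, which met at 5, or 84.4 and 52.6 against 196 and 259 per 1000000. All windows of a sample share its list length and the added peak, so these values describe likeness and carry no test.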

How the data were processed

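5hmC in sonicated hippocampal DNA was glucosylated with an azide-bearing glucose, linked to biotin, captured on streptavidin and sequenced, per the labels' protocols. CASAVA 1.4, Bowtie 0.12.9 and MACS 1.4.2 are listed, with build mm9, in the submitters' processing notes. The authors deposited 1 peak list per sample, each with its own numbering. The sources used here give no caller settings, background library or read numbers, so depth is unknown and no interval that needs it was computed. The score is the authors' deposited value for each peak, used only within a list. Nothing in the lists names its scale.

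Members were all peaks with a midpoint in the segment (343, lists of 25548 to 78980 peaks). The segment, its genes, the tests and the alternatives were chosen with earlier results of these data known. Each peak was assigned to the 1 Mb window holding its midpoint. The 1548 windows with a mean of at least 5 peaks were fitted with limma 3.58.1 (R 4.3.3), with a trend on the mean, on log2 of peaks per 1000000 peaks of the list with a pseudocount of 1, all 8 samples as 4 groups sharing 1 spread. The Benjamini-Hochberg method adjusted p over all windows, and 0.05 was the threshold. A fold change is thus relative to list length, and the pseudocount raises windows with few peaks more in short lists. Age was tested on 4 segment measures by exact two-sided permutation (scipy 1.17.1), since the choice of the segment did not use the age contrast. The choice did use the difference between the aged groups, which widens the spread among aged samples, so the test is not free of it. With 2 samples against 2 no p under 0.333 is possible. Regions join peaks of any sample that overlap by 1 bp or more. A percentile is the percent of a list's peaks with a score at or below that of the peak. Named regions were those with a peak in all 8 samples (none were found), in both aged enriched and neither aged control sample or the reverse (up to 5 each, by mean percentile), the widest and that with the highest percentile. The 3 windows with the highest r were named as most like the segment. The fit was tested on simulated data. Nothing in the labels ties the replicates to separate mice, so the p-values reflect the spread of these samples alone, which may be technical. Alternatives were other pseudocounts and scalings, stricter or equally long lists, other windows and merging, array weights, a replicate block and each sample left out.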

Additional observations from a re-analysis of the deposited data

How the results depend on the processing

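The fitted difference between aged enriched and aged control samples stayed above 0 in both segment windows in 17 of 17 alternatives each (log2 1.395 to 1.83 at 91 to 92 Mb, 0.90 to 1.68 at 92 to 93 Mb). Omitting the filter or a young sample, array weights per group and the replicate block cannot move this difference. The choice of the segment used it, so its direction is given as a description. The aged difference in segment share ran from 1.55 to 1.65 with each aged sample left out, and was 1.01 with a score of at least 100 and 1.96 in equally long lists. The young difference (0.30) was 0.0068 with a score of at least 100 and ran from 0.085 without young control replicate 1 to 0.52 without young control replicate 2. Merging gave 185 regions, 55 with a score of at least 100 and 107 in equally long lists. Lists limited to a score of at least 100 turned the direction of 3 age differences: relative width (−0.036 on the log2 scale), score percentile (−2.32 points) and the window at 91 to 92 Mb (0.41). Relative width passed the exact permutation test in equally long lists (log2 0.19, p = 0.0286, the smallest possible, unadjusted), and p ran from 0.0571 to 0.743 in its other alternatives. Age in segment share and covered length kept its direction in all 11 alternatives each and passed the test in none.

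The number of windows called by limma moved with the processing, and the cause was not tested. For age it was 0, and it was 2 with a pseudocount of 4 peaks, after quantile normalization and with array weights, 1 without the filter on windows with few peaks, and 0 to 111 with each sample left out (without aged enriched replicate 2). For housing in aged samples it was 56, and it was 21 with a pseudocount of 0.25 peaks or in proportion to list length, 152 with a pseudocount of 4, 11 after quantile normalization, 142 in equally long lists, 0 with a score of at least 100 (344 at an unadjusted p under 0.05), 108 without the filter, 0 in windows of 250 kb (714 at an unadjusted p under 0.05) and 12 with array weights. With each sample left out it ran from 0 (without aged control replicate 2, 225 at an unadjusted p under 0.05) to 288 (without aged enriched replicate 1). For housing over both ages it was 1, and it was 0 with a pseudocount of 0.25 peaks or in proportion to list length, after quantile normalization, in equally long lists, with a score of at least 100 and in windows of 250 kb (135 to 358 at an unadjusted p under 0.05), 3 with a pseudocount of 4, 4 with array weights and 0 to 130 (without aged enriched replicate 1) with each sample left out. A group reduced to 1 sample was assumed to vary like the others. For housing in young samples it was 0 in all 18 alternatives (2 to 68 at an unadjusted p under 0.05).

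The replicate numbers are shared by the groups, but no label ties same-numbered samples together, and the correlation of their deviations ran from −0.14 to 0.096 over the 6 pairs of groups. With the replicate block limma called 1 window for age, 73 for housing in aged samples, 0 in young samples and 1 over both ages. Without read numbers a low peak count and low sequencing depth cannot be told apart, and counts of 0 to 8 peaks per 250 kb in the aged lists limit what the steps can show.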
